A study of Prunus sibirica with 6 samples.

Results

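The genes described here were chosen by words linked to the cuticle, the surface layer of the plant, and their function was not measured. They were taken from the gene table of RNA sequencing in flowers of Prunus sibirica, the Siberian apricot, as all genes whose protein description names a fatty acyl-CoA reductase, a 3-ketoacyl-CoA synthase, a lipid-transfer protein, an ECERIFERUM protein, the wax ester synthase WSD1 or a glycerol-3-phosphate acyltransferase. The words matched 85 genes, of which 3 were dropped because their descriptions also mention pollen, which left 82 of 31889 genes. Flowers in bloom (labelled as floral organ) were collected under natural frost at -4 °C from clone 338, called the strong clone here for its strong frost resistance, and from clone 28, called the weak clone for its weak frost resistance. Each clone gave 3 libraries. Each kind of resistance is represented by a single clone, and no unfrosted flower was analysed here. Whether a clone's libraries stem from different trees is not in the labels, and the spread behind each p-value may therefore be technical.

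The plant cuticle consists of cutin, a polyester of fatty acids and glycerol, and of waxes laid in and over it. In Arabidopsis, the source of most names below, fatty acids are lengthened by an elongase whose condensing enzyme is a 3-ketoacyl-CoA synthase (KCS). The long chains are turned into alkanes by ECERIFERUM 1 (CER1) and its partner, or into alcohols by fatty acyl-CoA reductases (FAR), and WSD1 joins alcohols to acids as wax esters. Glycerol-3-phosphate acyltransferases (GPAT) of the land plant type make cutin precursors, and lipid-transfer proteins (LTP) are small secreted proteins that bind lipids. The members fell into 9 FAR, 21 KCS, 13 other ECERIFERUM genes, 8 WSD1, 12 GPAT and 15 LTP genes. A further 4 are 1-acyl-sn-glycerol-3-phosphate acyltransferases (LPAAT), enzymes of phospholipid synthesis that share the words of the rule but are not cuticle enzymes. Every name rests on likeness to a protein of another species.

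Reads assigned to genes numbered 16367632 to 18866306 per library. Library 3 of the weak clone stood apart from its group, at -15.9 on the first principal component of the log2 values, against -93.5 to -46.7 in the strong libraries and 124.0 and 109.5 in weak libraries 1 and 2. Flowers are mixed tissue, and fewer cells of a type cannot be told apart from less RNA per cell. Over 70 of 125 genes with pollen or anther words that reached the test, the mean log2(FPKM + 1) was 5.14, 5.45 and 4.85 in strong libraries 1, 2 and 3 and 5.86, 5.73 and 5.46 in weak libraries 1, 2 and 3 (exact permutation p = 0.1, two-sided, the smallest that 3 against 3 libraries allow), a difference of -0.53 that turned to 0.20 when libraries were rescaled to an equal sum. FPKM counts fragments for each kilobase of a gene and is meant to allow for the size of the library. The deposited scale did not follow the assigned reads. For a gene of 1 kb, 1 read was worth 0.0439, 0.0514 and 0.0372 FPKM in the strong libraries. In weak libraries 1, 2 and 3 it was worth 0.0965, 0.0921 and 0.0481 FPKM. Summed FPKM was 500782, 591204 and 464129 in the strong libraries and 1217398, 1106483 and 580337 in the weak libraries. For 43 of 53 photosystem and chlorophyll-binding genes, which mark green parts, the mean was 5.61, 5.61 and 5.71 in the strong libraries and 4.17, 4.76 and 5.29 in the weak libraries (exact permutation p = 0.1). For 8 of 17 tapetum and exine genes the mean was 3.54, 3.65 and 3.50 against 3.57, 3.49 and 3.41 (exact permutation p = 0.4). The single tested pistil S-RNase gene of 4 was at 0.22, 0 and 0 in the strong libraries and 2.56, 2.26 and 2.95 in the weak libraries. With 1 gene, a difference in the gene itself between the clones cannot be told apart from a difference in pistil tissue. The part of these tissue markers in the results below was not tested, except where a value is given.

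Most members called different between the clones were lower in the strong clone. Past the threshold, a limma adjusted p below 0.05 over all tested genes, 1 member was higher and 10 were lower in the strong clone. The 10 lower genes were 3 FAR genes, 2 genes described as CER1, 2 WSD1 genes, the cutin acyltransferase gene GPAT6 (PARG29501) and 2 LTP genes, and the higher gene was SUD1 (PARG19901), a ubiquitin ligase. The test took genes that reached 1 FPKM in 3 or more of the 6 libraries, which left 51 of the 82 members. Among all 16462 tested genes, 15.3% passed, 7.53% higher and 7.78% lower. The members' shares were 21.6%, 1.96% and 19.6%, and no test of the list as a whole was made, since its members were chosen with earlier results known. The median difference in log2(FPKM + 1), strong minus weak, was -0.37 over the tested members and 0.05 over all tested genes. With libraries rescaled to an equal sum these medians were 0.34 and 0.75, so the sign of the members' median turned while its distance from the median of all genes was -0.41, against -0.42 before rescaling. In the main limma fit 27 of the 51 tested members had an unadjusted p under 0.05, 8 of them higher in the strong clone. After rescaling 22 of 52 tested members had such a p, 12 of them higher. Among all tested genes, 7540 of 16462 and 8597 of 16908 had such a p, in either direction. Between the clones, libraries did not overlap in 25 of the 51 tested members, 7 with the strong clone above and 18 with it below, against 45.4% of all tested genes, 23.3% above and 22.1% below.

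These counts changed when any single library was left out. Without strong library 1, 2 or 3 the members lower in the strong clone numbered 1, 3 and 1, where 1.01%, 2.14% and 1.4% of all genes passed. Without weak library 1 or 2 there were 4 lower members each, where 3.71% and 2.4% of all genes passed. In these 5 limma fits 0 members were higher at an adjusted p below 0.05, while 3 to 6 were higher at an unadjusted p under 0.05. Among all tested genes, 3925 to 6118 had such an unadjusted p in these fits, in either direction. Without weak library 3, 12 members were higher and 23 lower, where 73.4% of all genes passed. With the mean of the pollen list as a covariate, 0 members passed in limma in either direction (8 of 51 had an unadjusted p under 0.05), and 0.383% of all genes passed. In that limma fit 1601 of all 16462 tested genes had an unadjusted p under 0.05. The pollen mean differs between the clones itself, so that fit also loses precision.

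**Figure D1:**
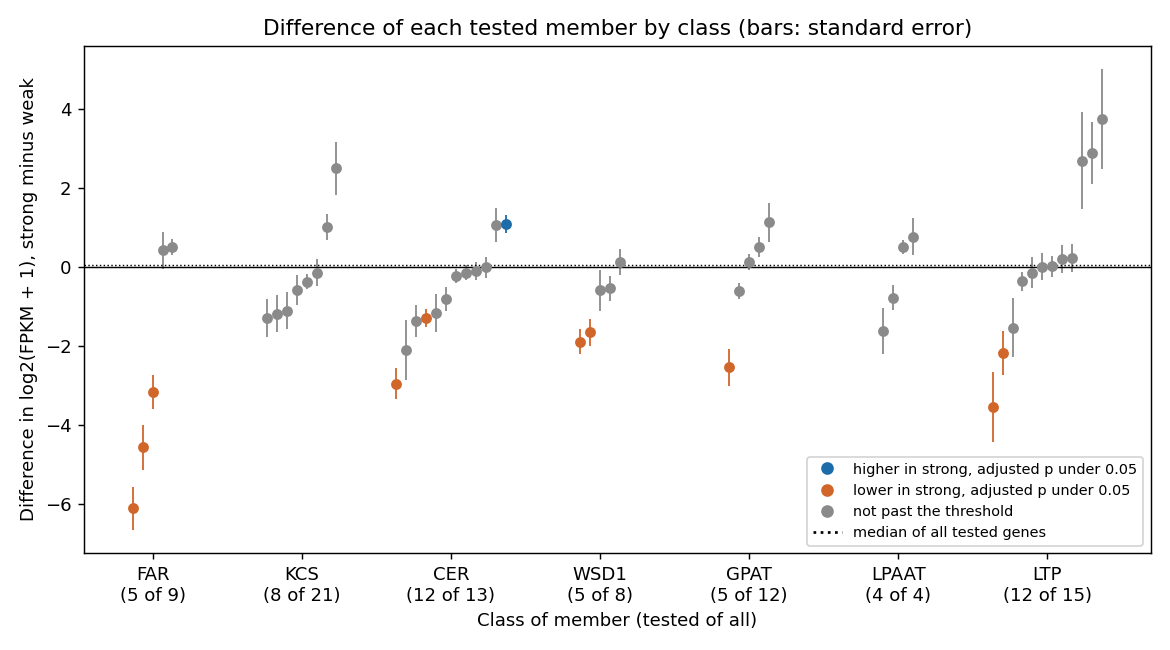
Difference in log2(FPKM + 1), strong minus weak, of the 51 tested members by class, with the standard error of the fit as bars. Blue marks the member higher in the strong clone, orange the 10 lower members and grey those not past the threshold, and the dotted line is the median of all tested genes, 0.05. The lowest points are FAR genes and the highest are LTP genes with wide errors.

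Fatty acyl-CoA reductases gave the 2 largest log2 differences among the tested members. FAR3, known in Arabidopsis as ECERIFERUM 4, makes the primary alcohols of wax, and 8 of the 9 FAR genes lay within 50 kb of the next on linkage group 1 between 9425056 and 9520032, a stretch of 94.98 kb. Of these, 7 were on the minus strand and PARG01270 at the left edge was on the plus strand. In 6 of the 8 genes the strong libraries lay below all weak libraries. The reads of these 6 genes together numbered 5, 12 and 3 in the strong libraries, against 2093, 1128 and 873 in the weak ones.

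The most abundant of them, PARG01275 (FAR3, 9472416 to 9474202), was at 0, 0.0546 and 0.0790 FPKM in strong libraries 1, 2 and 3, against 153, 79.4 and 30.2 FPKM in weak libraries 1, 2 and 3. The strong clone had 3 reads of it and the weak clone 2896. By the deposited FPKM scale, its rate was 1587 times as high in the weak clone (95% exact interval 543 to 7702, counting error only). On the log2 scale it differed by -6.12 ± 0.55 (SE; limma adjusted p = 0.00383). It passed in 13 of 14 alternative fits, including each that left out a library, with adjusted p values from 5.1e-05 to 0.0742, the highest being the fit with the pollen covariate (-5.20 ± 0.78). LAT52 (PARG10934), an abundant pollen gene, was at 1439, 2618 and 1059 FPKM in the strong libraries, against 8917, 7714 and 2391 FPKM in the weak libraries.

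PARG01277 (described as FAR5, 9482676 to 9484086), on the same strand with only PARG01276, which has no description, between them, had 0 reads in the strong clone and 48.6, 26.8 and 8.89 FPKM in the weak libraries. Against a floor of 3 reads over the strong libraries it was at least 313-fold lower in the strong clone (log2 difference -4.58 ± 0.56, adjusted p = 0.00824). The gene model is short, with 492 bases, and carries only the domain PF07993, while PARG01275 has 942 bases and carries PF07993 and PF03015, as the other FAR3 genes do. The level of PARG01275 was 3.14, 2.97 and 3.40 times that of PARG01277 in weak libraries 1, 2 and 3, while the level itself spanned the values given above. Ratios of PARG01275 to other genes of the stretch varied more in the same libraries. They were 8.38, 12.2 and 5.78 for PARG01282, 62.3, 20.2 and 36.4 for PARG01278, and 65.2, 79.8 and 133 for PARG01272. PARG01282 (FAR3) was at 0, 0.208 and 0.0251 FPKM in the strong libraries and 18.2, 6.53 and 5.22 FPKM in the weak libraries (-3.17 ± 0.43, adjusted p = 0.0106). Leaving out a library kept PARG01277 past the threshold in 4 of 6 fits and PARG01282 in 3 of 6.

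The other FAR genes of the stretch were low. PARG01272, PARG01278 and PARG01285 did not reach the test, with 0 to 0.199 FPKM in the strong libraries and 0.227 to 3.93 FPKM in the weak libraries, and with no overlap between the clones. PARG01271 had at most 0.108 FPKM in any library. PARG01270, the plus-strand gene, was at 2.77, 2.73 and 1.42 FPKM in the strong libraries and 0.213, 2.70 and 2.21 FPKM in the weak ones, with overlap between the clones (adjusted p = 0.481). The 7 genes without description inside the stretch had at most 0.297 FPKM in any library. A gene model for cytochrome P450 94C1 (PARG01280) runs over PARG01282 and PARG01285 on the same strand, and the neighbours are alike in description, so reads could have been shared among them. With next to no reads in a whole clone, a difference in gene sequence or copies cannot be told apart from expression. The FAR gene outside the stretch, PARG26534 on linkage group 8, is described as FAR2, which in Arabidopsis makes alcohols of the pollen wall. It was at 1.63, 1.16 and 1.24 FPKM in the strong libraries and 0.813, 0.388 and 0.776 FPKM in the weak libraries. The clones did not overlap, and the difference missed the threshold (0.50 ± 0.20, adjusted p = 0.103). Its model lies inside that of another gene on the same strand, so its reads may not be its own.

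**Figure D2:**
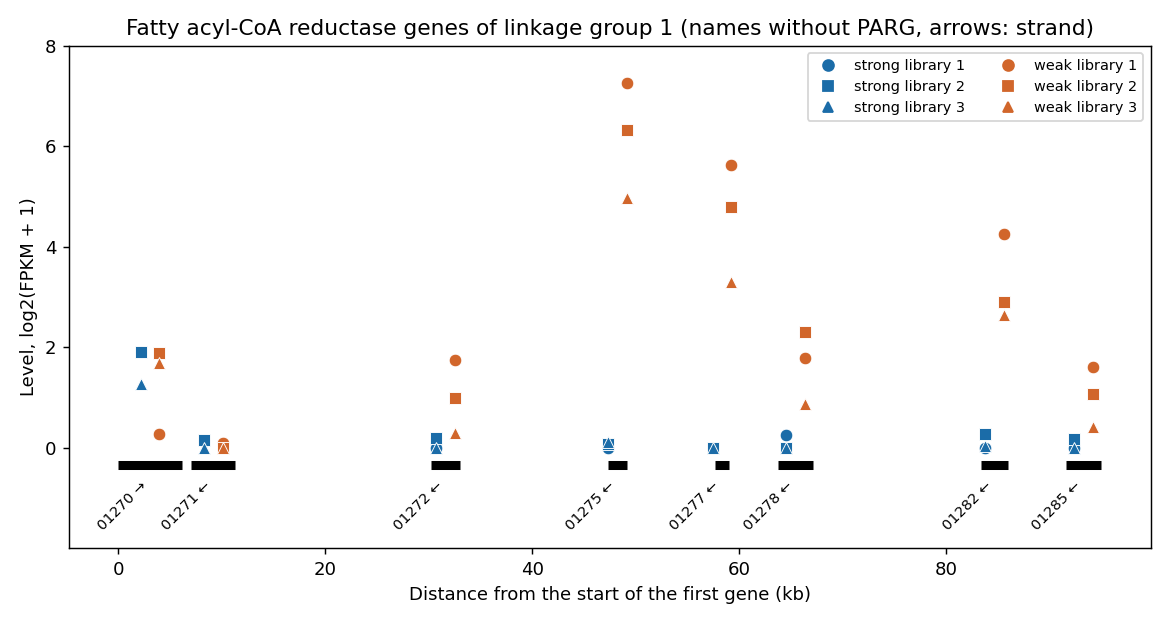
Level of the 8 FAR genes of linkage group 1 in each library, as log2(FPKM + 1), by distance from the start of PARG01270 in kb. Black bars are the gene models, blue marks are the strong libraries and orange marks the weak libraries. PARG01275, PARG01277 and PARG01282 stand high in the weak libraries and at or near 0 in the strong libraries, while PARG01270 overlaps between the clones.

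The condensing enzymes of the elongase gave 0 calls by limma in either direction, and 0 by limma voom, among 8 tested of 21 KCS genes, of which 4 had an unadjusted p under 0.05 by limma. In the main limma fit 7540 of all 16462 tested genes had an unadjusted p under 0.05. KCS6 (PARG06675), known in Arabidopsis as the main condensing enzyme of epidermal wax, was at 13.0, 15.2 and 8.74 FPKM in the strong libraries and 41.4, 37.9 and 12.5 FPKM in the weak libraries (-1.11 ± 0.47, adjusted p = 0.114). Weak library 3 lay among the strong libraries. The same arrangement was seen in KCS20 (PARG03540), at 14.4, 14.5 and 8.12 FPKM against 39.3, 43.0 and 13.8 FPKM. It was also seen in the most abundant KCS gene, PARG27989 (KCS11), at 34.9, 57.0 and 27.9 FPKM against 129.95, 138 and 47.5 FPKM (adjusted p = 0.0887). The model of PARG27989 carries a SOUL heme-binding domain besides its KCS domains and lies within that of another gene on the same strand, so its value may be that of more than its KCS part. Without weak library 3, where 73.4% of all tested genes passed, KCS6 and KCS20 passed the test (-1.64, limma adjusted p = 0.00113, and -1.70, limma adjusted p = 0.00151). Each passed in 2 of 14 alternative fits, and in 1 of the 6 that left out a library. With libraries rescaled to an equal sum the differences were -0.32 (limma adjusted p = 0.350) and -0.40 (limma adjusted p = 0.268).

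The KCS genes also held the opposite pattern. PARG21516 (KCS4, linkage group 6) was at 12.04, 10.1 and 12.4 FPKM in the strong libraries and 0.136, 0.389 and 5.90 FPKM in the weak libraries, with no overlap (2.49 ± 0.67, adjusted p = 0.0521). The other KCS4 gene, PARG07290, was at 6.04, 5.54 and 5.54 FPKM against 8.02, 6.52 and 8.70 FPKM (-0.38 ± 0.19, adjusted p = 0.164). The 6 KCS19 genes side by side on linkage group 5 and the 3 KCS7 genes on linkage group 2 had at most 1.07 FPKM in any library. The enoyl-CoA reductase of the elongase, known as ECERIFERUM 10, was represented by PARG18938, at 24.8, 20.6 and 23.7 FPKM in the strong libraries and 26.6, 26.8 and 28.7 FPKM in the weak libraries (-0.24 ± 0.17, adjusted p = 0.282), or 0.56 with libraries rescaled to an equal sum.

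Genes described as CER1, which in Arabidopsis makes wax alkanes, included 2 of the lower members, PARG17729 and, without the domains of that enzyme, PARG08705. Of the genes described as CER1, 3 lie next to each other on linkage group 5 (13334138 to 13359367) and carry the WAX2 and fatty acid hydroxylase domains of that enzyme. The middle gene, PARG17729, was at 0.575, 0.836 and 0.546 FPKM in the strong libraries and 22.3, 9.12 and 7.96 FPKM in the weak libraries (-2.96 ± 0.39, adjusted p = 0.00932). Every weak library was above every strong library, and the means differed 20.1-fold. Its neighbour PARG17730 was at 4.85, 3.00 and 4.52 FPKM against 19.0, 14.9 and 6.16 FPKM, also without overlap (-1.38 ± 0.41, adjusted p = 0.0622). The other neighbour, PARG17728, was at 5.77, 6.44 and 2.42 FPKM against 33.6, 54.2 and 6.21 FPKM, with weak library 3 among the strong libraries (-2.11 ± 0.76, adjusted p = 0.0853). PARG17729 passed in 4 of the 6 fits that left out a library.

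The remaining gene described as CER1, PARG08705 on linkage group 2, carries only a transferase domain, which the other CER1 genes lack. It fell to 1.55 ± 0.477 FPKM in the strong clone, against 5.21 ± 0.878 FPKM in the weak clone (SD, n = 3 each), with a log2 difference of -1.29 ± 0.23 (adjusted p = 0.0202). It passed in 1 of the 6 fits that left out a library, and with libraries rescaled to an equal sum the difference was -0.70 (adjusted p = 0.103). The alkane partner CER3 (PARG24351) is not a member, because its description names a pollen phenotype. It was at 44.4, 70.7 and 28.1 FPKM in the strong libraries and 241, 223 and 61.98 FPKM in the weak libraries and did not pass (-1.72 ± 0.60, adjusted p = 0.0798).

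SUD1, also named ECERIFERUM 9, is a ubiquitin ligase that in Arabidopsis restrains cuticle lipid synthesis, and 1 of its 2 genes passed the test. PARG19901 (linkage group 6, 435166 to 439418) was at 12.6, 10.8 and 12.2 FPKM in the strong libraries and 3.61, 5.89 and 5.99 FPKM in the weak libraries. It was the only member higher in the strong clone, 2.30-fold by the means (1.08 ± 0.23, adjusted p = 0.0328), and it passed in 8 of 14 alternative fits but in 1 of 6 that left out a library. Its end overlaps a gene on the other strand by 102 bases. PARG21202, on the same linkage group, was at 38.7, 65.0 and 35.8 FPKM against 145, 146 and 50.8 FPKM, with overlap (-1.17 ± 0.47, adjusted p = 0.103). The regulators and feeders of the wax pathway among the members did not pass the test. They were the exosome subunit RRP45B (ECERIFERUM 7, PARG09283 and PARG10004), long chain acyl-CoA synthetase 1 (ECERIFERUM 8, PARG16155, -0.02 ± 0.26, adjusted p = 0.966) and ECERIFERUM 26-like (PARG05447, -0.82 ± 0.30, adjusted p = 0.0848).

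The wax ester synthase genes were low in both clones, and 2 of 5 tested were lower in the strong clone. A row of 4 WSD1 genes lies on linkage group 6 (8271227 to 8297811). PARG21206 was at 0.0559, 0.0327 and 0 FPKM in the strong libraries and 3.68, 3.98 and 1.41 FPKM in the weak libraries (-1.90 ± 0.31, adjusted p = 0.0160). The strong clone had 3 reads of it, and by the deposited FPKM scale its rate was 95.4 times as high in the weak clone (95% exact interval 32.1 to 467). PARG21207 was at 0.579, 0.857 and 0.310 FPKM against 5.83, 4.67 and 2.17 FPKM (-1.67 ± 0.33, adjusted p = 0.0269). PARG21205 between 0.125 and 1.10 FPKM did not reach the test, with no overlap, and PARG21204 did not pass it (-0.55 ± 0.31, adjusted p = 0.200). Each of the lower WSD1 genes passed in 1 of the 6 fits without a library. The most abundant WSD1 genes elsewhere, PARG18478 and PARG19633, were at 1.56 to 8.16 FPKM with overlapping clones.

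Among 12 GPAT genes, 5 reached the test and 1 was lower. GPAT6, which in Arabidopsis makes cutin of petals and other flower organs, was represented by 4 genes, of which PARG29501 alone was abundant. It was at 11.8, 17.0 and 8.66 FPKM in the strong libraries and 118, 95.02 and 38.3 FPKM in the weak libraries. All weak libraries were above all strong libraries, and the means differed 6.72-fold (-2.55 ± 0.46, adjusted p = 0.0205, 1 of 6 fits without a library). Another GPAT6 gene, PARG13042, stood the other way at a low level, with 0.908, 0.565 and 0.937 FPKM in the strong libraries and 0, 0 and 0.0621 FPKM in the weak libraries, below the level for testing. The plastid enzyme (PARG23019), which serves membrane lipids, was at 12.6, 10.2 and 13.6 FPKM against 9.48, 10.97 and 12.6 FPKM (0.12 ± 0.20, adjusted p = 0.634). PARG20736, described by the human GPAT3, averaged 15.2 ± 1.01 FPKM in strong libraries and 24.1 ± 4.17 FPKM in weak libraries (SD, n = 3 each) and did not pass (-0.62 ± 0.20, adjusted p = 0.0691). Of the 4 phospholipid LPAAT genes, 0 were at an adjusted p below 0.05 by limma and by limma voom, and 3 had an unadjusted p under 0.05 by limma. Among all 16462 tested genes, 7540 had such an unadjusted p by limma. The most abundant LPAAT gene, PARG07333, was at 41.9, 73.0 and 29.0 FPKM in the strong libraries and 213, 216 and 60.1 FPKM in the weak libraries.

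**Figure D3:**
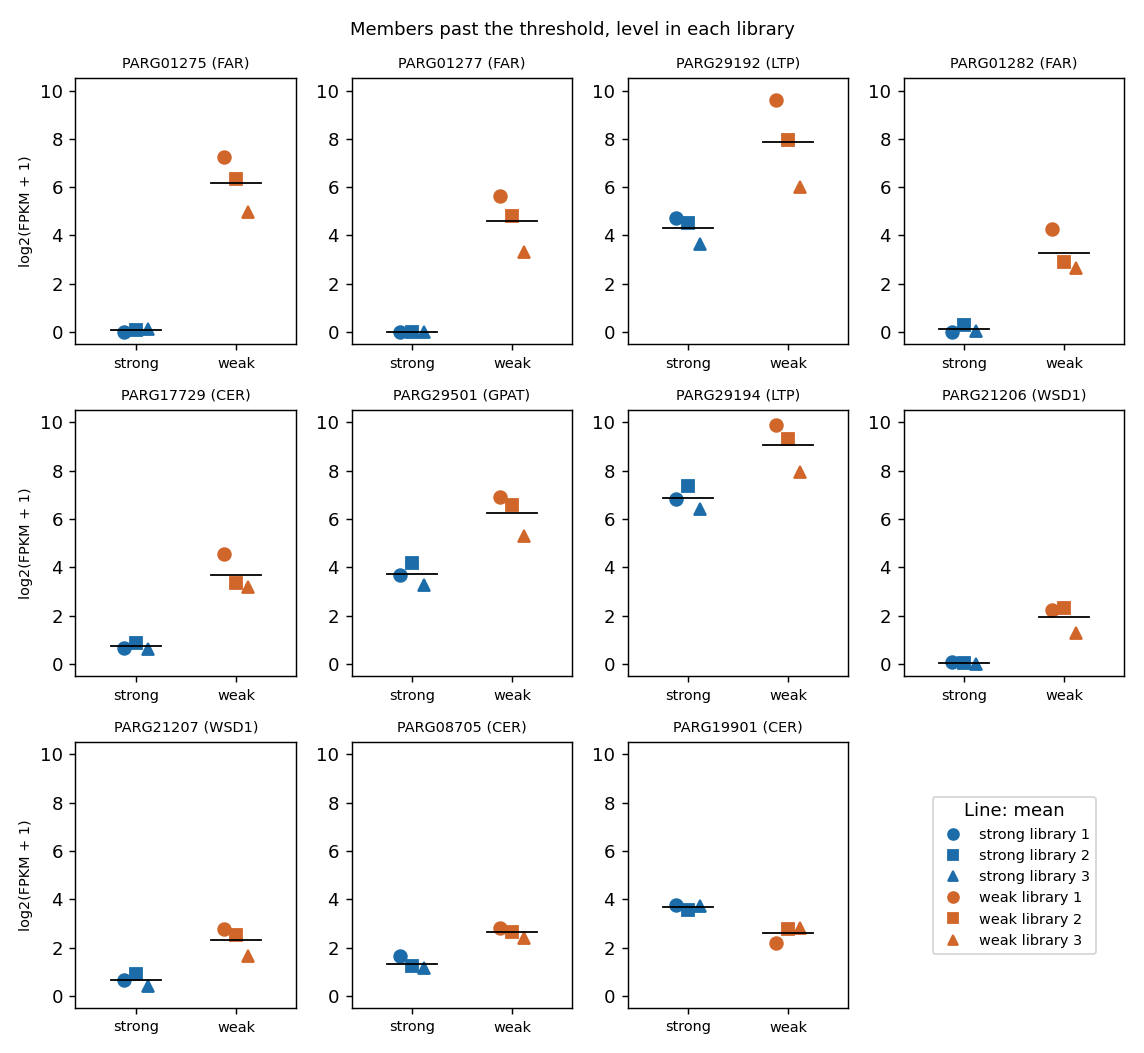
Level, as log2(FPKM + 1), of the 11 members past the threshold in strong libraries (blue, left) and weak libraries (orange, right), with the mean as a line. PARG01275, PARG01277, PARG01282 and PARG21206 are near 0 in all strong libraries, and PARG19901 is the panel in which the strong libraries lie above the weak ones.

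Lipid-transfer proteins held most of the transcripts. The summed FPKM of the 15 LTP genes was 2223, 2297 and 1478 in the strong libraries and 8145, 6469 and 2715 in the weak libraries, which is 0.444%, 0.388% and 0.318% of all FPKM in the strong libraries and 0.669%, 0.585% and 0.468% in the weak libraries. A single gene, PARG29193, gave 61.0% to 79.5% of these sums and ranked 30 by mean among all 31889 genes. It is described as lipid-transfer protein 1. PARG29193 was at 1615, 1610 and 901 FPKM in the strong libraries and 5982, 5143 and 1900 FPKM in the weak libraries. Every weak library lay above every strong one, weak library 3 by little, and the difference missed the threshold (-1.55 ± 0.75, adjusted p = 0.147).

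PARG29193 belongs to a row of 6 LTP genes on contig tig00008183 (262822 to 285860), all on the minus strand, whose members differed in their values. Past the threshold were PARG29192, at 25.7, 21.8 and 11.4 FPKM in the strong libraries and 784, 244 and 62.6 FPKM in the weak libraries (-3.55 ± 0.88, adjusted p = 0.0439), and PARG29194, at 112, 166 and 83.6 FPKM against 962, 634 and 248 FPKM (-2.19 ± 0.56, adjusted p = 0.0470). Each passed in 1 of 6 fits without a library. PARG29187, described as lipid-transfer protein 3, was at 186, 157 and 137 FPKM in the strong libraries and 193, 201 and 224 FPKM in the weak libraries (-0.37 ± 0.24, adjusted p = 0.251). The level of PARG29193 was 8.68, 10.2 and 6.59 times that of PARG29187 in the strong libraries and 31.0, 25.6 and 8.47 times in the weak libraries. The models of PARG29193, PARG29192 and PARG29194 overlap on the same strand, by 622 bases with PARG29192 and over the whole 558 bases of PARG29194, so the split of reads among these genes is uncertain.

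Outside the row, PARG14467 (lipid-transfer protein 2) on linkage group 4 overlapped between the clones, at 171, 237 and 206 FPKM in the strong libraries and 209, 234 and 169 FPKM in the weak libraries (0.0056 ± 0.27, adjusted p = 0.988). The difference was 0.84 with libraries rescaled to an equal sum (adjusted p = 0.0621) and 0.67 with quantile normalization (adjusted p = 0.0684). Genes on linkage group 1 described by the cherry allergen Pru av 3, PARG00356 and PARG00357, were at 0.251 to 3.13 FPKM with overlap.

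**Figure D4:**
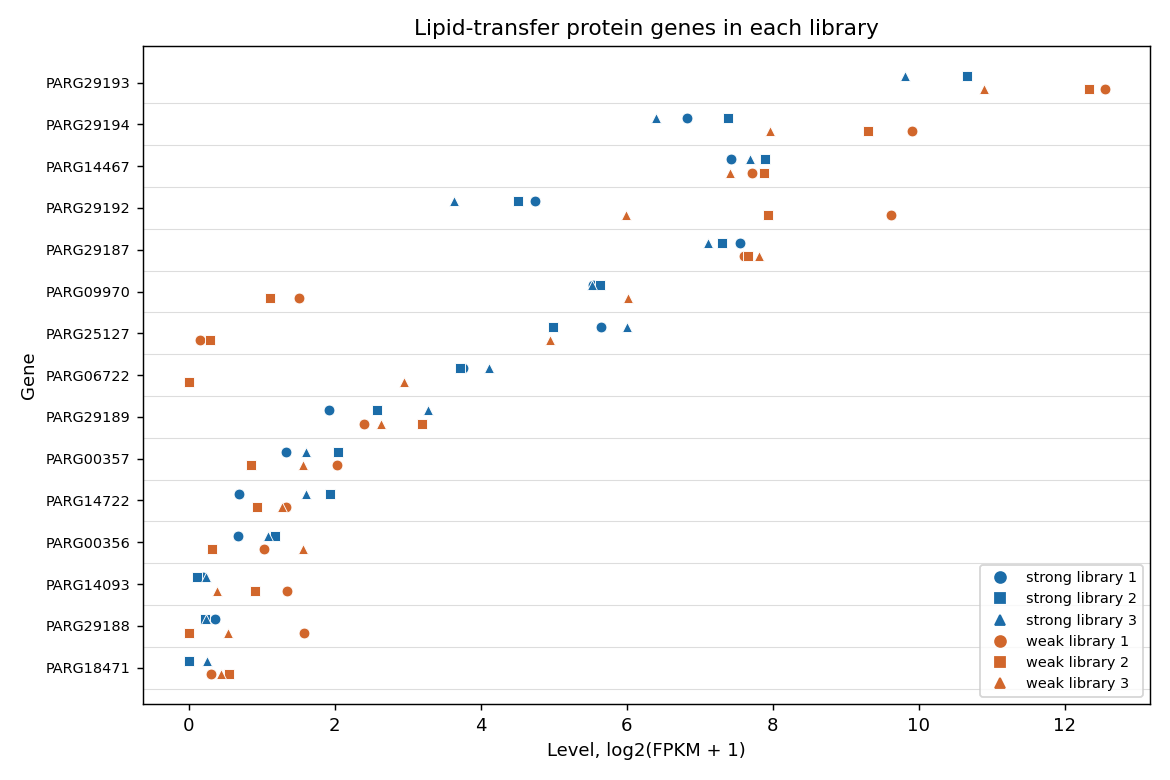
Level of the 15 LTP genes in each library, as log2(FPKM + 1), ordered by mean FPKM, with strong libraries (blue) above weak libraries (orange) in each row. PARG29193, PARG29194 and PARG29192 are higher in the weak libraries, while PARG09970, PARG25127 and PARG06722 are low in weak libraries 1 and 2 and high in the other 4.

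A group of 5 members was low in weak libraries 1 and 2 and higher in the other 4 libraries. They were chosen after their values were seen, as tested members with weak libraries 1 and 2 under 20% of the lowest strong library and weak library 3 over 2 times both, and 1207 of all 16462 tested genes (7.33%) met the same description, against 9.80% of the tested members. PARG09970, described as DIR1, a lipid-transfer protein that carries the systemic immune signal in Arabidopsis, was at 45.4, 48.8 and 45.004 FPKM in the strong libraries and 1.84, 1.17 and 63.7 FPKM in the weak libraries (2.69 ± 1.24, adjusted p = 0.132). PARG25127, described by the lipid-transfer protein AKCS9, was at 49.1, 30.9 and 63.1 FPKM against 0.117, 0.224 and 29.8 FPKM (3.75 ± 1.26, adjusted p = 0.0754). PARG06722, of the lipid-transfer protein 2 type, was at 12.6, 12.1 and 16.4 FPKM against 0, 0 and 6.69 FPKM (2.88 ± 0.79, adjusted p = 0.0547). GPAT1 (PARG14187) was at 2.60, 2.32 and 3.09 FPKM against 0.177, 0.0562 and 2.79 FPKM, and the KCS4 gene PARG21516 given above is the fifth. The difference among the weak libraries was here larger than that between the strong libraries and weak library 3. The green-part mean of weak library 3, 5.29, was likewise nearer to the strong libraries than those of weak libraries 1 and 2, at 4.17 and 4.76, and its part in these genes was not tested.

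**Figure D5:**
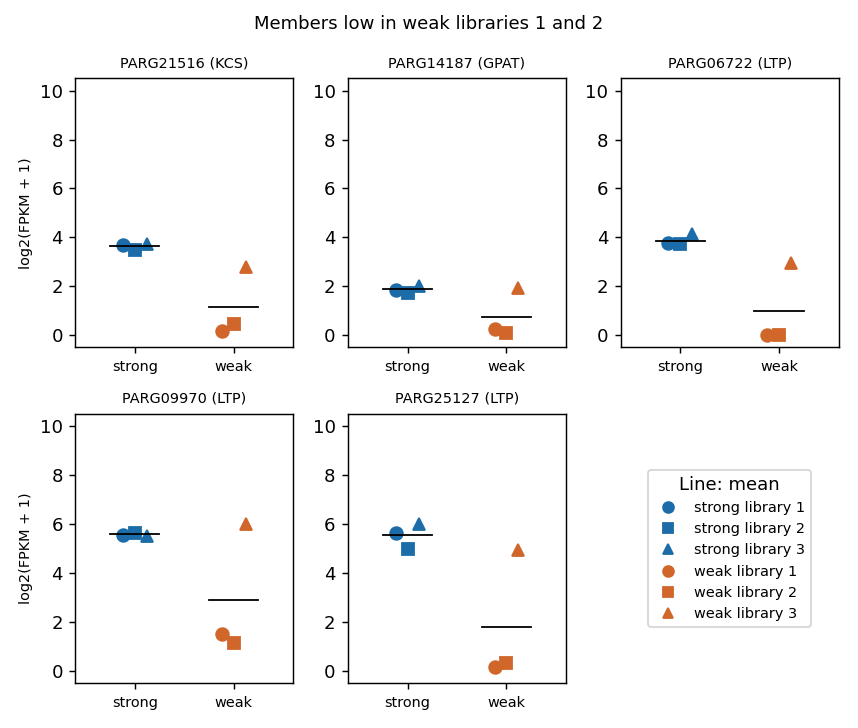
Level, as log2(FPKM + 1), of the 5 members that were low in weak libraries 1 and 2, in strong libraries (blue, left) and weak libraries (orange, right), with the mean as a line. In each panel the triangle of weak library 3 lies close to the strong libraries.

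Of the 82 members, 36 lay in 9 rows of the same class with gaps of at most 50 kb, and 8 of the 10 lower genes were in the rows of FAR, CER1, WSD1 and LTP genes. Of the 51 tested members, 19 lay in rows. Some models in the FAR and LTP rows overlap other genes on the same strand, so calls within a row may not be separate. The LTP pair on linkage group 1 and the enoyl-CoA reductase pair held 0 calls by limma and by limma voom, and 0 of these 4 genes had an unadjusted p under 0.05. The KCS rows and a GPAT pair had no tested gene. In the rows with calls, those that passed were PARG01275, PARG01277 and PARG01282 (FAR), PARG17729 (CER1), PARG21206 and PARG21207 (WSD1), and PARG29192 and PARG29194 (LTP). The other genes of these rows did not pass or did not reach the test. Of the 31 members that did not reach the test, 3 had 0 reads in every library, and the highest value was 3.93 FPKM. In 10 of these 31 the strong libraries lay below the weak libraries without overlap and in 2 they lay above. The same shares were not computed over all untested genes, so no conclusion about these members is drawn from this split.

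Other genes of the pathway, taken by the names of elongase subunits, acyl-CoA synthetases, cutin hydroxylases, wax exporters and regulators, numbered 48, of which 37 were tested, 2 were higher and 3 were lower in the strong clone. Their share, 13.5%, was near the 15.3% of all tested genes. Of 4 genes described as long chain acyl-CoA synthetase 2, which activates fatty acids for cutin in Arabidopsis, PARG21397, a model of 627 bases with no listed domain, was at 2.10, 1.80 and 1.72 FPKM in the strong libraries and 13.8, 10.1 and 14.8 FPKM in the weak libraries (-2.26 ± 0.22, adjusted p = 0.00436). The models with an AMP-binding domain that were tested did not pass: PARG21405 was at 5.69, 5.37 and 5.87 FPKM against 6.16, 9.65 and 13.1 FPKM (adjusted p = 0.126), and PARG21404 at 1.66, 1.82 and 1.53 FPKM against 0.804, 0.806 and 1.15 FPKM (adjusted p = 0.0940). The model of PARG21404 also carries TIR and NB-ARC domains, so its value may be that of more than its AMP-binding part. Cytochrome P450 86A22 (PARG23853), of the fatty acid hydroxylases, fell to 0.820 ± 0.252 FPKM in the strong clone, against 8.61 ± 4.46 FPKM in the weak clone (SD, n = 3 each; adjusted p = 0.0160). Of 2 tested genes described as the exporter ABCG11, PARG21796 was at 1.01, 1.78 and 0.708 FPKM against 9.47, 7.85 and 2.70 FPKM (-1.72 ± 0.43, adjusted p = 0.0459). The other, PARG02851, was at 5.9999, 4.14 and 4.56 FPKM against 5.34, 7.11 and 3.61 FPKM, with overlap (adjusted p = 0.820). An untested gene with the same description had 0 reads in every library. Of the 5 called pathway genes, PARG21397 passed in all 6 fits that left out a library, PARG23853 in 2 and PARG21796, PARG15751 and PARG16977 in 1 each. Higher in the strong clone were HOTHEAD (PARG15751), an enzyme of cutin acid synthesis, at 27.8, 16.3 and 24.5 FPKM against 1.36, 1.20 and 8.50 FPKM (2.67 ± 0.59, adjusted p = 0.0343), and an enoyl-CoA reductase gene (PARG16977), at 3.57, 2.47 and 3.49 FPKM against 0, 0.268 and 1.01 FPKM (adjusted p = 0.0236). The model of PARG15751 also carries a Root hair defective 3 GTP-binding domain, so its value may be that of more than its HOTHEAD part. Of 7 genes matched as regulators, 4 are MIEL1 ubiquitin ligases, matched through the name of their target MYB30. The wax regulators SHINE 2 (PARG08234, -0.997 ± 0.29, adjusted p = 0.0609) and WIN1 (PARG15386, -0.99 ± 0.54, adjusted p = 0.182) did not pass.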

How the data were processed

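Gene levels were read from a table of FPKM values that the authors deposited for 31889 genes and 6 libraries, with gene length in bases, position and description. CASAVA, RSEM and Bowtie2 are named in the submitters' processing notes. For neither their versions nor the genome build do the sources used here give a value. Positions are as in the table. In every library 100% of positive values were whole multiples of a single read's worth within 0.01 read, which gave reads per gene, and no pair of libraries agreed within sampling noise. For a gene of 1 kb, 1 read was worth 0.0372 to 0.0965 FPKM.

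A gene was tested if it reached 1 FPKM in 3 or more of 6 libraries. limma 3.58.1 (R 4.3.3) was fitted to log2(FPKM + 1), with lmFit and then eBayes (trend), two-sided. P-values were adjusted after Benjamini and Hochberg over all tested genes, and the threshold was 0.05. The log2 differences, strong minus weak, understate low genes. The fit was tested on simulated data. Intervals and floors (3 reads over a clone) cover counting error only. Rate ratios, their intervals and the floors use the deposited FPKM scale, which did not follow the assigned reads. Members and lists were chosen with earlier results of these data known. Genes named were the called members, the 3 most abundant of each class, members of their rows and those seen in 1 clone only. A further 14 members and 11 other genes were named after their values were seen. Alternatives changed the pseudocount, filter, scaling, test, covariate, block and libraries.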

Additional observations from a re-analysis of the deposited data

How the results depend on the processing

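The 31 members under the level for testing have no test, and a gene that missed the threshold is not shown to be equal between the clones. Against 1 member higher and 10 lower, leaving out a library gave 0 to 12 higher and 1 to 23 lower, and for all genes 166 to 12075 calls against 2520, the upper values without weak library 3. For the other pathway genes, 2 higher and 3 lower, the ranges were 0 to 11 and 1 to 16.

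Members called with no filter on low values were 2 higher and 10 lower, with quantile normalization 3 and 11, and with a minimum of 5 FPKM 1 and 5 (1183 calls among all genes, where fewer genes were tested). With a pseudocount of 0.1 there were 1 and 8, with libraries rescaled to an equal sum 1 and 10 (9 of the 10 the same), and with limma voom on the recovered reads 1 and 10. The voom fit kept the library scale of the deposited FPKM values. The pollen covariate gave 0 and 0, with 63 calls among all genes and 0 and 0 among the other pathway genes (8 members, 6 of those genes and 1601 of all tested genes had an unadjusted p under 0.05 by limma). The other pathway genes gave 1 higher with a pseudocount of 0.1 and with voom, 1 higher and 1 lower with a minimum of 5 FPKM, 6 higher with equal sums and 5 lower with quantile normalization. The causes were not tested. Of all calls, 49.2% were higher in the strong clone, against 69.5% with equal sums. Libraries numbered 2 deviated together, as did those numbered 3 (correlations of 0.59 and 0.61), but not those numbered 1 (-0.24). As not every number showed it, the numbers were not taken to pair the samples. With the replicate block there were 6 higher and 17 lower members, 6439 calls in all, and 5 higher and 11 lower other pathway genes.

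With equal sums the log2 difference in summed FPKM stayed negative in every class and stood at -0.11 for KCS, -0.092 for the other ECERIFERUM genes, -0.25 for WSD1, -0.50 for GPAT and -0.58 for LTP. The marker lists moved to 0.20 for pollen, 0.78 for tapetum and 1.65 for green parts. Among named members none of the 11 called changed sign in any alternative. Signs turned for these genes that had not passed. With equal sums the differences were 0.077 for PARG18478, 0.56 for PARG18938, 0.67 for PARG18941, 0.17 for PARG20736, 0.017 for PARG21204, 0.46 for PARG29187, 0.55 for PARG29189, 0.63 for PARG02851, 0.34 for PARG07290, 0.41 for PARG09283, 0.69 for PARG16155 and 0.087 for PARG21405. With quantile normalization they were -0.17 for PARG19633, 0.21 for PARG29187, 0.032 for PARG29193, -0.37 for PARG00356 and -0.10 for PARG00357, and with voom -0.015 for PARG14467, -0.022 for PARG00356 and 0.071 for PARG16155. With the pollen covariate they were 0.060 for PARG06675, 0.86 for PARG18478, -0.52 for PARG19633, 0.014 for PARG21202, 0.055 for PARG21204, -0.33 for PARG21448, -0.26 for PARG23019, -0.24 for PARG00356, 0.087 for PARG02851, 0.28 for PARG15386 and 0.25 for PARG16155. Leaving out a library turned PARG01270 (-0.088 to 0.72), PARG14467 (-0.12 to 0.13), PARG19633 (-0.22 to 0.35), PARG29189 (-0.49 to 0.18), PARG00356 (-0.32 to 0.30), PARG00357 (-0.13 to 0.46), PARG02851 (-0.29 to 0.11) and PARG16155 (-0.24 to 0.19).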
